A study of Mus musculus with 8 samples.

Results

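The keratin genes are the members of the mouse genome whose symbol is Krt followed by a digit, without the keratin-associated proteins. The arrays carried 61 probes for 54 of them, out of 22911 genes that could be named through RefSeq, and each gene was read from its probe with the highest mean signal over the 8 arrays. Islets were taken from 11-week-old male βFbln5KO mice, in which Ins1-Cre (Cre under the mouse insulin 1 promoter) acts on a floxed Fbln5 gene, and from floxed littermates without Cre. RNA of 150 islets per extraction, 4 extractions in each group, was hybridised to 1 slide of 8 one-colour Agilent arrays. Mice that carried Cre without the floxed gene were not on the arrays, so that the deletion and Cre itself cannot be told apart. The control arrays filled the first row of the slide and the βFbln5KO arrays the other, so that the place on the slide cannot be told apart from the genotype.

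Signals are given on the log2 scale relative to the 75th percentile of the same array, so that 0 is the signal below which 75% of the spots lie. Between 56.6% and 58.8% of spots on control arrays, and between 52.6% and 56.6% on βFbln5KO arrays, carried the scanner software's mark for a signal well above background. The lowest signal with that mark was −5.01 to −4.79 on control arrays and −4.70 to −4.19 on βFbln5KO arrays. Dim signals of the same height were therefore marked more readily on control arrays, which goes into every count of marked arrays below. All 9 beta cell markers were above background on every array, with mean log2 signals of 5.45 to 5.53 in control and 5.37 to 5.47 in βFbln5KO islets. The targeted gene Fbln5 had log2 signals of −1.70, −1.32, −2.05 and −1.83 on control arrays, with a mean of −1.72 ± 0.31 (SD, n = 4). The arrays labelled βFbln5KO gave −2.74, −2.40, −2.38 and −1.37, with a mean of −2.22 ± 0.59 (SD, n = 4). The first 3 of these lay below every control array, while the array labelled βFbln5KO 4 lay above 3 of the 4 controls and so went against its label. The log2 difference was −0.50 (limma adjusted p = 0.342, exact permutation p = 0.171), and −0.78 without that array, a value given with no test because the array was singled out by its own Fbln5 signal. The probe's place relative to the deleted exons is not given in the sources used here, so that it is a weak check of the labels. The paper reported reduced Fbln5 mRNA and protein in βFbln5KO islets, and proposed that islet cells other than beta cells also express the gene. Every mean and difference below includes the array labelled βFbln5KO 4 unless it is said to be left out.

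Keratins are the intermediate filament proteins of epithelia. A type I keratin pairs with a type II keratin, and both are needed for a filament. Krt8 and Krt18 are the pair of simple epithelia, including islet and acinar cells, and pancreatic ducts add Krt7 and Krt19. Krt5 with Krt14 mark the basal layer of stratified epithelia, Krt1 and Krt2 with Krt10 the upper epidermis, Krt4 with Krt13 the lining of mouth and esophagus, and Krt6a, Krt16 and Krt17 are induced in wounded or hyperproliferative skin. The numbered hair keratins build the hair shaft and its sheaths. Of the 54 genes, 28 were of type I and 26 of type II. In RefSeq (GRCm38.p6), 27 keratin genes lay on chromosome 11, all of type I, and 27 on chromosome 15, where Krt18 was the 1 type I gene among type II genes.

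RefSeq promoters were held for 36 of the 54 keratin genes, with 37 entries. Stretches of 70 bases are shown for Krt8, Krt18 and Krt7, whose signals lay above the 75th percentile of every array, and for Krt13, Krt2, Krt42 and Krt23, which are among the keratins above background on more control than βFbln5KO arrays. Each begins 60 bases before the annotated start and ends 10 bases into the transcript, on the gene's own strand of GRCm38.p6. The stretch of Krt8 is chr15:102004333-102004402 (minus strand), that of Krt18 chr15:102028156-102028225 (plus strand) and that of Krt7 chr15:101412343-101412412 (plus strand). The entries of Krt13 are chr11:100121557-100121626 and chr11:100120568-100120637, that of Krt2 chr15:101818160-101818229, that of Krt42 chr11:100269942-100270011 and that of Krt23 chr11:99493111-99493180, all on the minus strand. Capitals mark the letters ATAA, the core of a TATA box, where they lie between 40 and 16 bases before the start.
Krt8: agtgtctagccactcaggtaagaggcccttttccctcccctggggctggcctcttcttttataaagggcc
Krt18: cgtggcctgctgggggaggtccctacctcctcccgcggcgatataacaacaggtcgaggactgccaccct
Krt7: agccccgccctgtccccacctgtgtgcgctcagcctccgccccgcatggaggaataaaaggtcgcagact
Krt13, entry 1: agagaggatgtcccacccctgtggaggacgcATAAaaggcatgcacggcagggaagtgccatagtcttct
Krt13, entry 2: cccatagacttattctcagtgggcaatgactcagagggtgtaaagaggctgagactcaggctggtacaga
Krt2: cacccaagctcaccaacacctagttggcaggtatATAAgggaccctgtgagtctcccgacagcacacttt
Krt42: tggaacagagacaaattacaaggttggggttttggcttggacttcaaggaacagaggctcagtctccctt
Krt23: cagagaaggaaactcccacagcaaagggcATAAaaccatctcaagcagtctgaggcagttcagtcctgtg
Of the 37 keratin promoters, 25 (67.6%) held ATAA in these 25 bases on the gene's strand, compared with 8.23% of all 32851 promoters. On either strand the shares were 67.6% and 12.8%. The longer TATAAA, which contains ATAA, was found in 13 keratin promoters (35.1%) and in 1.99% of all promoters on the gene's strand, and in 35.1% and 2.48% on either strand. Krt13 (entry 1), Krt2 and Krt23 held ATAA in these 25 bases. The letters also occur in the stretches of Krt8, Krt18 and Krt7, but not wholly inside the searched bases, and are left in lower case there. These are matches of letters only, and the arrays do not bear on them.

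Most keratin genes were dim in islets. A signal well above background was called on all 8 arrays for 15 keratins (27.8%, against 59.6% of all genes), on 1 to 7 arrays for 16, and on no array for 23 (42.6%, against 24.9% of all genes). Of 7 keratins of simple epithelia, 5 were above background on every array, compared with 6 of 21 stratified and epidermal keratins and 3 of 24 keratins of hair shaft and root sheath. Between 19 and 25 keratins were called above background on a control array and between 15 and 19 on a βFbln5KO array.

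**Figure D1:**
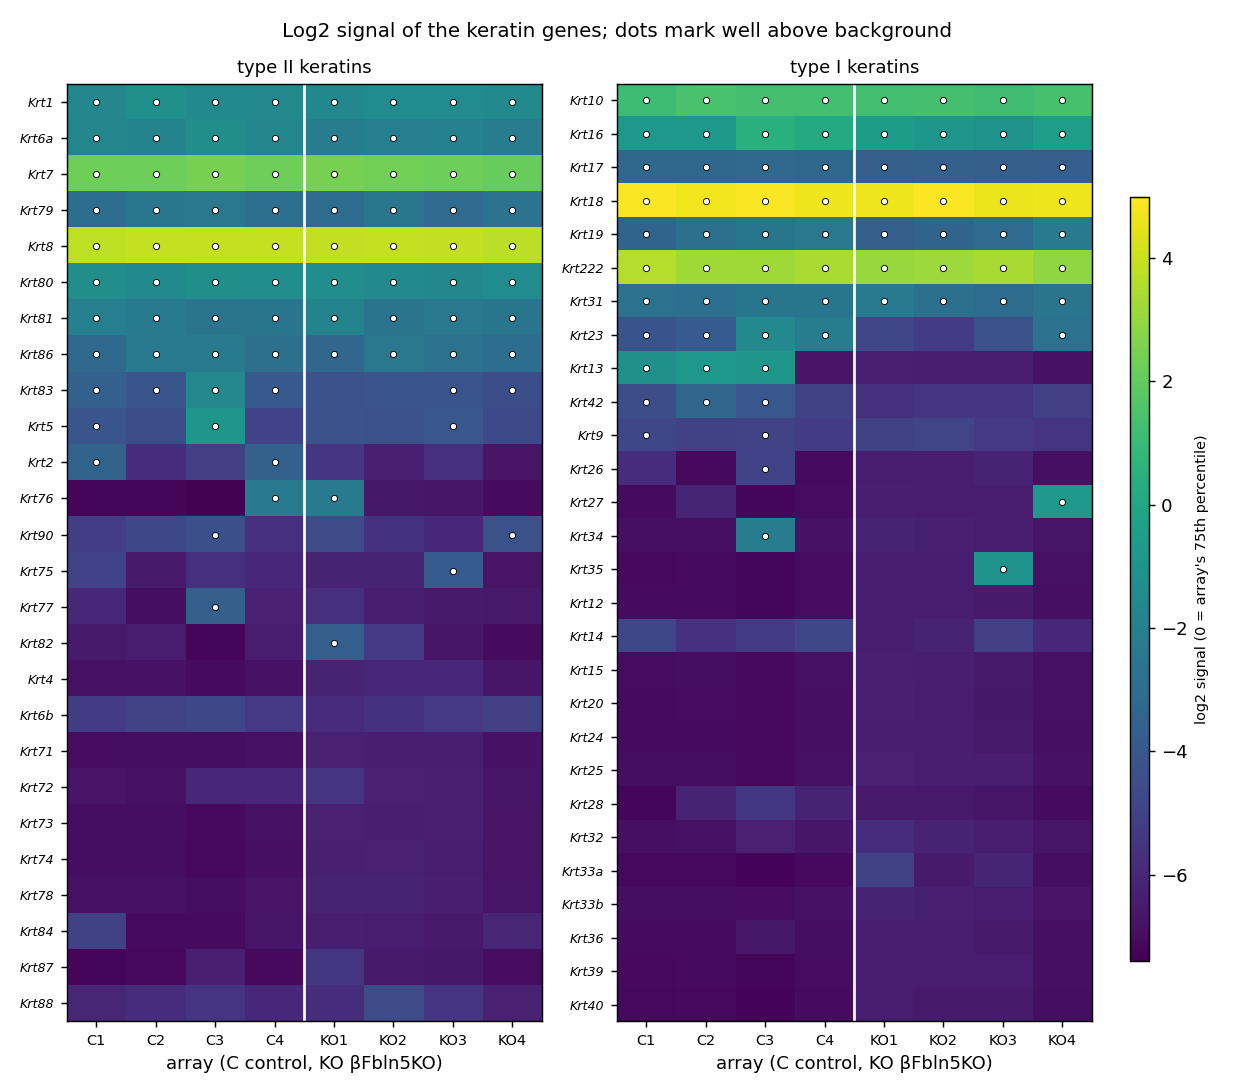
Log2 signal of all 54 keratin genes (rows) on the 8 arrays (columns, C control and KO βFbln5KO), with type II genes left and type I genes right. Dots mark the signals well above background, which were called on every array for 15 genes and on none for 23. Rows come from different probes, so that colours compare arrays within a row.

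No keratin differed between the groups after adjustment over all probes with limma (0 of 54, compared with 3 of all 22911 genes, 0.0131%). At an unadjusted p under 0.05, 14 keratins were higher and 5 were lower in βFbln5KO islets, where 16.8% of all genes were higher and 2.68% were lower. The 14 higher keratins were all called above background on no array, and the 5 lower ones, Krt6a, Krt17, Krt13, Krt2 and Krt42, were all above background on at least 2 control arrays. The median log2 difference was 0.0011 over the 54 keratins and 0.024 over all genes. Over the 15 keratins above background on every array it was −0.12, with 13 of the 15 differences below 0, while it was −0.0082 over all such genes, of which 53.6% were below 0.

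**Figure D2:**
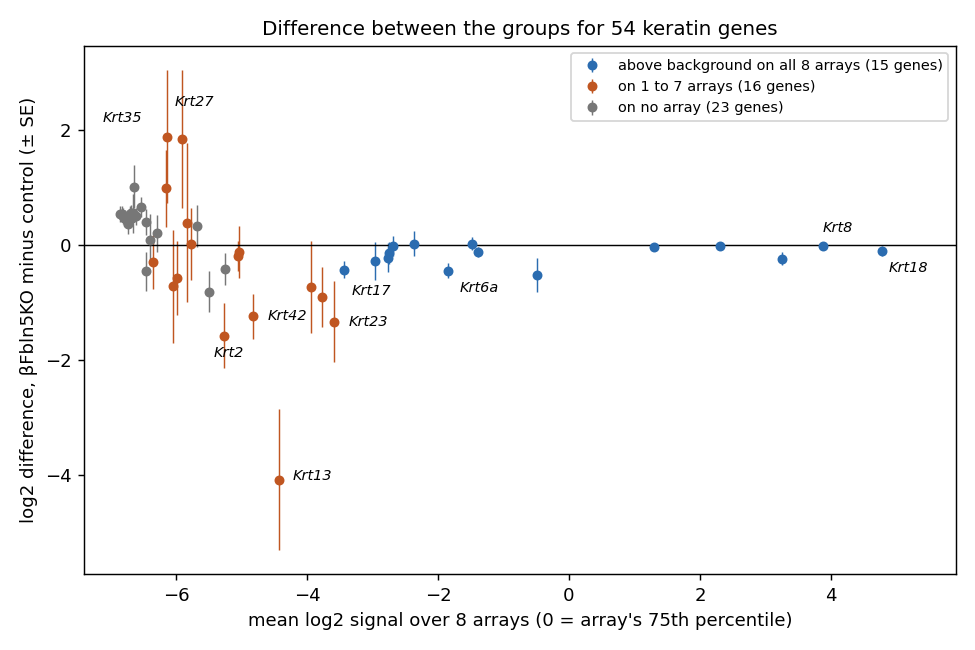
Log2 difference between βFbln5KO and control islets (vertical axis, ± SE from limma, 4 arrays per group) against the mean log2 signal over 8 arrays (horizontal axis) for 54 keratin genes. The 15 genes above background on every array lie between −0.52 and 0.02, most of the 23 genes above background on none lie near 0.5, and Krt13 is plotted at −4.08, with no βFbln5KO signal above background.

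Among the keratins of simple epithelia, Krt8, Krt18 and Krt7 differed little between arrays. Krt8, the type II keratin of simple epithelia, had log2 signals of 3.80, 3.92, 3.90 and 3.92 on the control arrays and 3.88, 3.92, 3.88 and 3.78 on the βFbln5KO arrays. The groups overlapped, and the log2 difference was −0.02 with a 95% interval of −0.14 to 0.10. Its partner Krt18 had signals of 4.94, 4.75, 4.92 and 4.68 in control and 4.67, 4.91, 4.62 and 4.69 in βFbln5KO islets. The difference was −0.10 (95% interval −0.29 to 0.10, limma adjusted p = 0.580), a 1.07-fold higher mean in control that is within the spread. Krt7, a type II keratin of ducts, had control signals of 2.27, 2.28, 2.44 and 2.28 and βFbln5KO signals of 2.44, 2.36, 2.28 and 2.13, a difference of −0.01 (95% interval −0.18 to 0.15). Krt80, a type II keratin of many epithelia, differed by −0.12 (95% interval −0.32 to 0.08) on its brighter probe and by −0.08 on the other. Krt19, the type I partner of Krt7 in ducts, spread more widely, with control signals of −3.42, −2.82, −2.56 and −2.47 and βFbln5KO signals of −3.67, −3.39, −3.07 and −2.26, and a difference of −0.28 (95% interval −1.03 to 0.47), which was −0.56 without the array labelled βFbln5KO 4 and −0.09 without βFbln5KO array 1. Krt20 was called above background on no array. Mouse Krt8 and Krt18 have many processed pseudogenes, and Krt6a, Krt16, Krt17, Krt81, Krt83 and Krt86 have close paralogs. Since the probes' letters are not in the files, a signal shared with such a copy cannot be told apart.

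Krt23, a type I keratin of simple epithelia, varied the most among arrays in this class. Its log2 signals were −4.20, −3.77, −1.52 and −2.15 on control arrays 1 to 4 and −4.74, −5.18, −4.32 and −2.76 on βFbln5KO arrays 1 to 4. All 4 control arrays but only the array labelled βFbln5KO 4 were well above background, and the groups overlapped. The log2 difference was −1.34 (SE 0.70, limma adjusted p = 0.298), within the spread of the arrays. No fold is given because 3 of the 4 βFbln5KO signals were not well above background. The difference was −0.88 without control array 3 and −0.67 with normexp background correction. Without the array labelled βFbln5KO 4 it was −1.84, given with no test because that array alone in its group was well above background. The high arrays, control 3 and 4 and the array labelled βFbln5KO 4, were also those with the highest signals of acinar genes, which encode digestive enzymes of the exocrine pancreas. All 15 acinar markers were above background on every array, and their mean log2 signal was 6.41, 6.12, 8.03 and 7.65 on control arrays 1 to 4 and 6.32, 5.35, 5.42 and 7.17 on βFbln5KO arrays 1 to 4. Summed over the 15 markers, the level lay between 10.547 and 12.098 on the log2 scale across control arrays, against 9.94 to 11.3 across βFbln5KO arrays. None of the 15 was higher and 2, Cela1 and Try4, were lower at an unadjusted p under 0.05, compared with 3.08% of all genes above background on every array. All 15 log2 differences were below 0, with a median of −1.13, where 53.6% of those genes were below 0. The mean of the 15 markers overlapped between the groups (exact permutation p = 0.171). In bulk islet RNA, fewer cells of a type and less RNA per cell cannot be told apart.

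Over the 8 arrays, 20 keratins were set against this acinar mean. The permutations ran over all 8 arrays without regard to group. The log2 signal of Krt23 had a Pearson correlation of 0.93 (exact permutation p = 0.00129, adjusted over 20 genes 0.0129) and a Spearman correlation of 0.88 (exact permutation p = 0.00724, adjusted 0.0724). Of the βFbln5KO arrays only the one labelled βFbln5KO 4 gave Krt23 a signal well above background, so that its low values rest partly on dim signals. For Krt16, a type I keratin of activated epidermis, Pearson's correlation was 0.93 (exact permutation p = 0.000174, adjusted 0.00347) and Spearman's 0.95 (exact permutation p = 0.00114, adjusted 0.0228). Without control arrays 3 and 4, the farthest from the median of the acinar mean, Pearson's value was 0.79 for Krt23 and 0.89 for Krt16. With each group's own mean subtracted it was 0.90 and 0.91. The other probe of Krt16, also above background on every array, did not follow the acinar mean (Pearson 0.03), so that the relation rests on 1 of its 2 probes. Krt19 had a Pearson correlation of 0.68 (exact permutation p = 0.0757, adjusted 0.293) and Krt8 of −0.09 (exact permutation p = 0.831, adjusted 0.924). With the acinar mean as a covariate in the fit, the log2 difference between the groups was −0.17 for Krt23 (SE 0.42) and −0.03 for Krt16 (SE 0.16), compared with −1.34 and −0.52 without it. In the same fit Krt222 was at −0.36, compared with −0.24. The covariate was chosen after the data were seen, and its own mean was 7.05 in control and 6.07 in βFbln5KO islets. The part of acinar content in the differences between the groups was not tested. The 13 duct markers, of which 8 were above background on every array, had mean log2 signals that spanned −1.27 to −0.54 in control and −1.59 to −0.89 in βFbln5KO islets, and their part in the values of Krt7 and Krt19 was not tested.

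**Figure D3:**
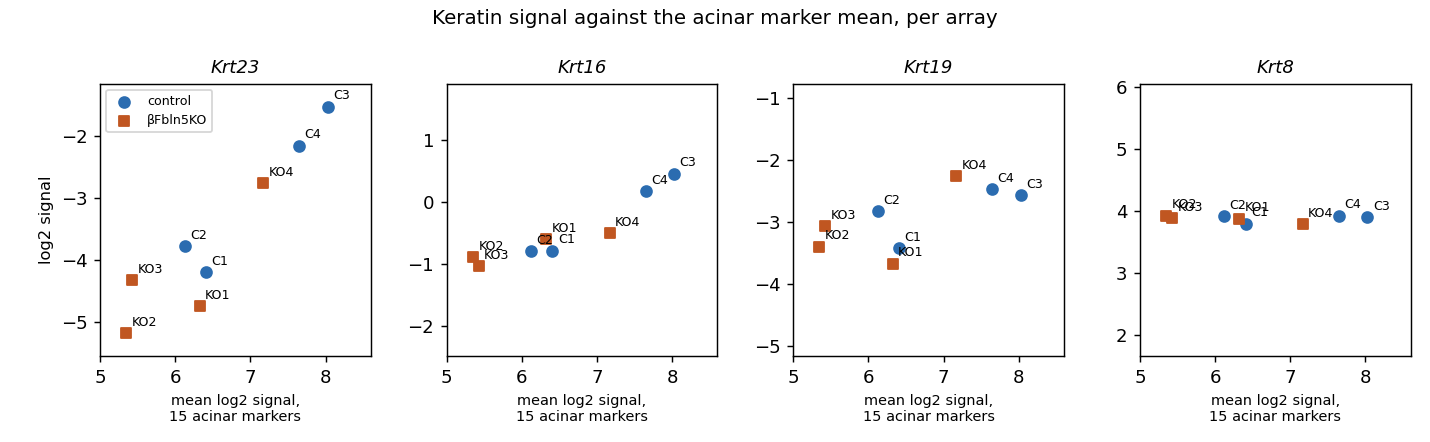
Log2 signal of Krt23, Krt16, Krt19 and Krt8 (vertical axes, each spanning the same number of log2 units) against the mean log2 signal of 15 acinar markers (horizontal axis) on each of 8 arrays. Krt23 and Krt16 are highest on control arrays 3 and 4, where the acinar mean is 8.03 and 7.65, while Krt8 stays between 3.78 and 3.92.

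Among the keratins of stratified epithelia, Krt6a and Krt17 were lower in βFbln5KO islets on every array. Krt6a, a type II keratin of wounded epidermis, had log2 signals of −1.69, −1.83, −1.25 and −1.70 in control and −2.12, −2.04, −1.97 and −2.13 in βFbln5KO islets. The groups did not overlap, and the control mean was 1.37-fold higher (log2 difference −0.45, SE 0.13, limma p = 0.00814, adjusted p = 0.0728, exact permutation p = 0.029). Krt17, a type I keratin of the same settings, had signals of −3.26, −3.20, −3.18 and −3.22 in control and −3.67, −3.61, −3.62 and −3.67 in βFbln5KO islets. The replicates lay within 0.08 log2 units of each other in control and the groups did not overlap, with a 1.35-fold higher mean in control (log2 difference −0.43, SE 0.15, limma p = 0.0184, adjusted p = 0.101, exact permutation p = 0.029). With the methods' t-test, which takes the spread of each probe by itself, Krt17 passed Benjamini-Hochberg adjustment (adjusted p = 0.0187), and it was the only keratin that did, among 35 of all genes (0.153%). With normexp its log2 difference was −0.19 (limma adjusted p = 0.754), and with the acinar mean as a covariate it was −0.43 (limma adjusted p = 0.276), so that neither passed at an unadjusted p of 0.05. An exact permutation p of 0.029 is the smallest that 4 arrays against 4 allow (two-sided). Of all genes above background on every array, 3.08% were lower and 1.01% higher at an unadjusted p under 0.05, and in 2.81% the groups did not overlap, compared with 2 lower, 0 higher and 2 without overlap among the 15 such keratins.

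Krt16, which pairs with Krt6a, had a difference of −0.52 on its brighter probe (SE 0.29, adjusted p = 0.330), which was −0.29 without control array 3, and of −0.15 on the other. Krt10, the type I keratin of upper epidermis, had control signals of 1.15, 1.46, 1.36 and 1.31 and βFbln5KO signals of 1.25, 1.33, 1.18 and 1.39, with a difference of −0.03 (95% interval −0.20 to 0.14). Its partner Krt1 differed by 0.02 (95% interval −0.25 to 0.29). Krt79, a type II keratin of sebaceous gland ducts, differed by −0.15 (95% interval −0.58 to 0.29). Krt5, the basal type II keratin, gave a measured signal on 2 arrays of control and 1 of βFbln5KO islets, and its partner Krt14 on none.

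**Figure D4:**
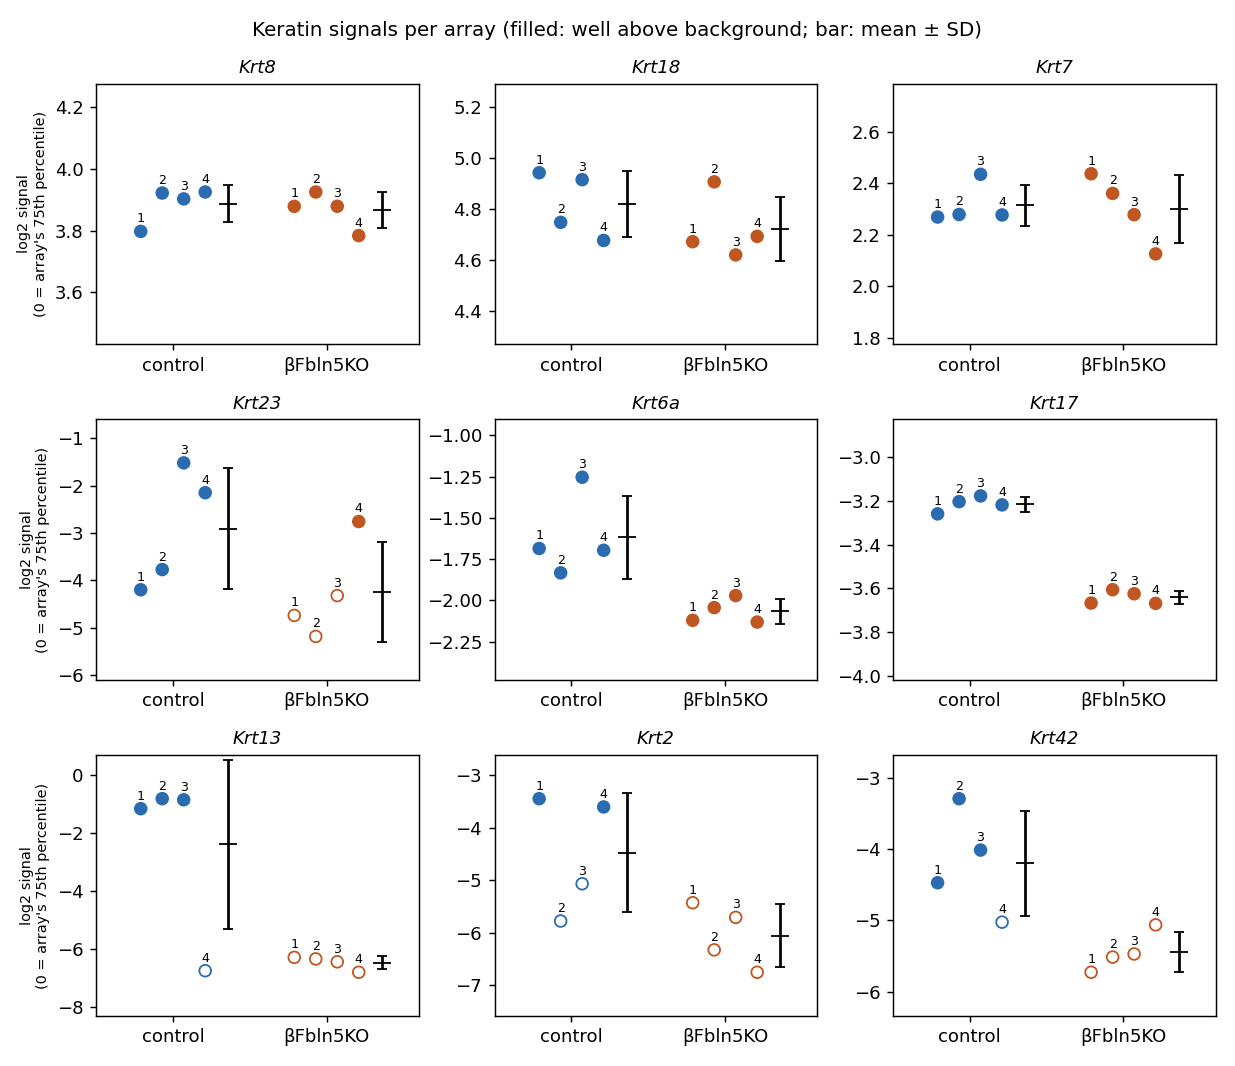
Log2 signal (vertical axis, 0 is the array's 75th percentile) of 9 keratins on each array, numbered 1 to 4 within a group. Filled points are well above background, open points are not, and bars give mean ± SD. Krt8, Krt18 and Krt7 overlap between the groups, Krt6a and Krt17 do not, and Krt13 lies between −1.16 and −0.81 on control arrays 1 to 3 and at −6.75 on control array 4.

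Krt13, the type I keratin of mouth and esophagus, was measured on control arrays only. Its brighter probe, A_52_P430886, had log2 signals of −1.16, −0.81, −0.85 and −6.75 on control arrays 1 to 4 and −6.29, −6.35, −6.45 and −6.81 on the βFbln5KO arrays. The first 3 control arrays, and no βFbln5KO array, gave a signal well above background, and control array 4 was as low as the βFbln5KO arrays, so that the groups overlapped. The control mean was at least 3.95-fold higher, taking the lowest signal well above background on each βFbln5KO array as the floor (limma p = 0.00918, adjusted p = 0.0737, exact permutation p = 0.114). Without control array 4 the bound was 10.8-fold and the adjusted p was 4.89e-04, in a fit that called 0.00873% of all genes lower. Control array 4 was singled out by its own Krt13 signal. The bound, the adjusted p and the share without it are therefore no evidence of a difference between the groups. Without control array 1, 2 or 3 the bound was 2.97-fold, 2.74-fold and 2.76-fold. The other probe of Krt13, A_55_P2006296, was above background on no array, with a log2 difference of −0.07 (SE 0.36, adjusted p = 0.938), so that its 2 probes disagree. The brighter probe lay in row 381 of 384 spot rows. Krt4, the type II partner of Krt13, was above background on no array.

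Krt2, the type II keratin of upper epidermis, had log2 signals of −3.45, −5.78, −5.07 and −3.61 in control and −5.43, −6.33, −5.71 and −6.75 in βFbln5KO islets. Control arrays 1 and 4 were well above background and no βFbln5KO array was, and control array 2 fell among the βFbln5KO arrays. The measured means were −4.47 ± 1.13 (SD, n = 4) and −6.05 ± 0.60 (SD, n = 4), with limma p = 0.0219, adjusted p = 0.114 and exact permutation p = 0.086. No fold is given because the control mean lay below the mean, over the βFbln5KO arrays, of the lowest signal well above background. With dim signals raised to a common floor the log2 difference was −0.33, no longer past an unadjusted p of 0.05, and with normexp −0.42. With the acinar mean as a covariate the log2 difference was −1.61, also not past an unadjusted p of 0.05. Krt42, a type I keratin of nail and stratified epithelia, had signals of −4.47, −3.29, −4.01 and −5.02 in control and −5.73, −5.51, −5.47 and −5.06 in βFbln5KO islets. Its groups did not overlap, although control array 4 and the array labelled βFbln5KO 4 nearly met, and the control mean was at least 1.13-fold higher (limma p = 0.0105, adjusted p = 0.0765, exact permutation p = 0.029). Control arrays 1 to 3, and no βFbln5KO array, were well above background, and the bound takes control array 4 at its measured signal. No bound remained for Krt42 without control array 2 or against the highest floor of the 8 arrays, and with a common floor the log2 difference was −0.27, no longer past an unadjusted p of 0.05. Among the 16 keratins above background on 1 to 7 arrays, 3 were lower at an unadjusted p under 0.05, compared with 3.83% of all such genes, and in 2 the groups did not overlap, compared with 19.4%. Without the array labelled βFbln5KO 4 the log2 differences were −0.43 for Krt6a and −0.42 for Krt17, the bounds were 3.66-fold for Krt13 and 1.04-fold for Krt42, and Krt2 no longer passed an unadjusted p of 0.05. The study listed Krt13 and Krt2 for their change on these same arrays, so that their differences are no independent evidence. Krt42 was described because its unadjusted p was under 0.05, so that its p-values and lack of overlap are no independent evidence either. In gene order Krt16, Krt17 and Krt42 are neighbours on chromosome 11, and Krt13 lies apart from them.

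The other keratins with a signal on some arrays were mostly bright on 1 array. Of the 16 keratins above background on 1 to 7 arrays, 10 were so on more control arrays, 4 on more βFbln5KO arrays and 2 on as many of each, where 61.8% of all such genes were above background on more control arrays. The lower cut-off of the mark on control arrays goes into these counts. On 1 array only, 3 were seen in control and 4 in βFbln5KO islets. Some of these, named here after their values were seen, were far above the other arrays of their group. The inner root sheath keratin Krt27 had a log2 signal of −0.76 on the array labelled βFbln5KO 4 and between −6.44 and −6.36 on the others of that group. The hair keratin Krt35 had −1.06 on βFbln5KO array 3 and between −6.84 and −6.42 on the others. Krt34, another hair keratin, had −2.17 on control array 3 and between −6.88 and −6.77 on the others. Krt76, a keratin of the palate, was bright on control array 4 (−2.35) and βFbln5KO array 1 (−2.28). Krt26, Krt75, Krt77 and Krt82 were above background on 1 array, and Krt9 and Krt90 on 2. Signals spanned more than 3 log2 units within a group for 8 keratins, namely Krt13, Krt27, Krt34, Krt35, Krt5, Krt76, Krt77 and Krt82. Of these, Krt13, Krt35, Krt5 and Krt77 lay in the outer 16 spot rows at either edge of the array, and no other keratin did. Those rows hold 7.41% of the keratins and 8.31% of all spots. The part of spot position was not tested.

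No hair keratin with a measured signal passed the test between the groups. Krt31, Krt81 and Krt86 were above background on every array, with log2 differences of −0.02 (95% interval −0.41 to 0.38), 0.02 (95% interval −0.47 to 0.52) and −0.22 (95% interval −0.79 to 0.34). With single arrays left out, the value of Krt86 ran from −0.39 without control array 1 to −0.08 without βFbln5KO array 1. Krt83 was measured on all 4 arrays of control and 2 of βFbln5KO islets, with signals of −3.60, −4.14, −1.55 and −3.94 against −4.21, −4.13, −4.13 and −4.40. Control array 2 was marked as above background at −4.14, and βFbln5KO array 2 was not at −4.13. The log2 difference was −0.91 (limma adjusted p = 0.348), and −0.32 without control array 3, which alone stood far above the βFbln5KO arrays. Krt222, a keratin-like type I gene, was above background on every array, with control signals of 3.62, 3.25, 3.21 and 3.41 and βFbln5KO signals of 3.08, 3.18, 3.36 and 2.92 and a difference of −0.24 (95% interval −0.50 to 0.02, adjusted p = 0.248). With the acinar covariate it was −0.36 and with normexp −0.26, both past an unadjusted p of 0.05 but not an adjusted one (limma adjusted p = 0.275 and 0.754), and without the array labelled βFbln5KO 4 it was −0.17.

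The 14 keratins that were higher at an unadjusted p under 0.05 had only signals that were not well above background. Their log2 signals lay between −7.29 and −6.75 on control arrays and between −6.95 and −4.95 on βFbln5KO arrays, where the lowest signal of any spot was −7.35 to −7.13 on the control arrays and −7.04 to −6.53 on the βFbln5KO arrays. Their median distance above that lowest signal was 0.24 log2 units in control and 0.23 in βFbln5KO islets. Over the 23 keratins above background on no array the median difference was 0.47, and over all 5710 such genes it was 0.48, of which 60.6% were higher at an unadjusted p under 0.05. Without the array labelled βFbln5KO 4, whose lowest signal was the nearest to those of control, 15 keratins passed an adjusted p of 0.05, all higher and all above background on no array. In that fit 15.9% of all genes and 58.3% of the genes above background on no array were called higher. No fold is given for these genes.

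Genes that work with keratins were read from lists. Of 21 desmosome and plakin genes, which anchor keratin filaments at cell junctions, 15 were above background on every array, and none of those 15 was higher or lower at an unadjusted p under 0.05. The list's 2 higher genes, Dsg1c and Dsg4, were above background on no array. The differences were −0.08 for Dsp (SE 0.08), the plakin that binds keratins at desmosomes, −0.10 for Dsg2 (SE 0.04, limma adjusted p = 0.208, groups without overlap) and 0.01 for Pkp2 (SE 0.06). Of 16 other intermediate filament genes, 12 were above background on every array and none was called, with −0.06 for Vim (SE 0.15) and −0.04 for Lmna (SE 0.07). Of 21 cornified envelope genes, 10 were higher and none lower at an unadjusted p under 0.05, and 9 of the 10 were above background on no array, the other, Sprr1a, on 1, whose value was left out of the fit as an outlier spot. Of all genes 16.8% were higher, and of the genes above background on no array 60.6%. Of 19 epithelial transcription factors, 2 were higher and 1 was lower, where 16.8% of all genes were higher and 2.68% lower. Trp63, the regulator of stratified epithelia, was lower by −0.29 (SE 0.12, adjusted p = 0.148), Klf5 was higher by 0.16 (SE 0.07, adjusted p = 0.197), and the other higher gene was above background on no array. No gene of these 4 lists passed an adjusted p of 0.05.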

How the data were processed

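The keratin genes and all gene lists were chosen with earlier results of these data known. The values deposited by the authors for each array are spot-wise processed signals, an intensity from Agilent Feature Extraction 11.0.1.1 after background subtraction and spatial detrending, with flags for outlier spots and spots well above background. The authors also deposited a table of normalized signal, in which 1 number per array divides the processed signals, held for 35553 probes (30 keratin genes). Per the methods, GeneSpring and Student's t-test were used.

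The log2 intensity of 59305 spots other than controls was taken relative to the 75th percentile of its array. Outlier-marked values were left out (0.356%), and spots of a probe were averaged to 56605 probes, of which 32994 were named through RefSeq accessions. The groups were compared with limma 3.58.1 (lmFit, eBayes with trend) in R 4.3.3. P-values were adjusted over every probe by Benjamini-Hochberg and read at 0.05, and the code was tested on simulated data. Depth does not apply to arrays, and their number limits the precision. The series' design text calls the samples of a group biological replicates. Keratins were described gene by gene where at least 4 arrays were well above background, or where limma's unadjusted p was under 0.05 with at least 1 array above background, and for Krt13 and Krt2, which made 20 genes. Lower bounds of a fold set the brighter group's mean against, per array, the higher of the dim signal and the lowest signal well above background. Keratins were assigned to classes by a list that leaves out Krt88 and Krt222. The cell type lists gave, at an unadjusted p under 0.05, 1 lower gene for alpha cells, 2 lower for acinar cells, 1 higher and 1 lower for duct cells, 3 higher for mesothelial cells and none for beta, delta, PP, endothelial, macrophage and mesenchymal cells. The 3 mesothelial genes and the higher duct gene, Mmp7, were above background on no array, where 60.6% of all genes were higher. Of all genes 16.8% were higher and 2.68% lower.

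Other settings tried were normexp (offset 50) or quantile normalization in place of the percentile, only probes above background on 4 or more arrays, dim signals raised to 1 floor, no trend in eBayes, outlier-marked spots retained, another probe per gene, the t-test of the study's methods, the authors' table, no probes from the outer 16 spot rows, replicate number as a blocking factor, and the removal of single arrays. The acinar covariate was chosen after seeing the data. Figures were drawn with matplotlib.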

Additional observations from a re-analysis of the deposited data

Results flagged for a closer look

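In 51 groups of 4 arrays with at least 1 keratin signal above background, 7 held an array whose gap to the nearest other array took more of the group's range than the 95% limit of Dixon's test allows. In 5 of the 7, those of Krt27, Krt35, Krt34 and Krt76, the array that stood apart was also the one that brought the group in, so that the usual chance rate of about 1 group in 20 does not apply. The gap was 0.942 of the range for Krt13 in control, where control array 4 was low, and 0.940 for Krt7 in control, where array 3 was high in a range of 0.17 log2 units. It was 0.987 for Krt27 on the array labelled βFbln5KO 4, 0.929 for Krt35 on βFbln5KO array 3 and 0.977 for Krt34 on control array 3. For Krt76 it was 0.965 on control array 4 and 0.904 on βFbln5KO array 1.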

How the results depend on the processing

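The limits are the 4 arrays per group, the single slide and signals at background for most keratins. The count past an adjusted p of 0.05 was 0 with every array, 1 with a common floor and 1 with the methods' t-test (Krt17 both times), 9 with eBayes without trend (Krt17 and 8 dim genes) and 0 to 15 with each array left out. The higher count of 14 became 0 with normexp, 1 with quantile normalization, 0 with the filter (17 keratins left), 0 with the common floor, 0 in the deposited table and 8 with the acinar covariate. The lower count of 5 became 2 with the filter, 3 with the common floor and 7 with normexp, and was 4 to 7 with each array left out. Krt13 had no bright probe without the outer spot rows (−0.07). The replicate numbers name samples only: correlations of same-numbered deviations were 0.20, 0.30, −0.22 and −0.02, and with the replicate block 0 keratins passed an adjusted p, 13 were higher and 5 lower, Krt17 not among the calls (p = 0.0605). Of 396 gene values recomputed under 20 alternatives, 23 changed sign, for 7 genes with no call. These were −0.016 for Krt1 and −0.042 for Krt81 with normexp, 0.0063 for Krt31 and 0.0014 for Krt8 with quantile normalization, and −0.045 for Krt1, 0.091 for Krt19, 0.15 for Krt31 and −0.10 for Krt81 with the acinar covariate. With each array left out, Krt1 ranged from −0.041 to 0.12, Krt10 from −0.089 to 0.012, Krt31 from −0.15 to 0.084, Krt7 from −0.060 to 0.044, Krt8 from −0.050 to 0.0074 and Krt81 from −0.16 to 0.13. Without a change of sign, Krt18 ranged from −0.16 to −0.06, Krt79 from −0.25 to −0.06 and Krt80 from −0.16 to −0.06. Krt17's adjusted p was 0.0379 with the common floor, 0.0498 without trend and up to 0.754 (normexp) in the other settings. The causes were not tested.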
